A study of Mus musculus with 2 samples.

Results

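Mgp, the gene for matrix Gla protein, was followed through single-cell RNA sequencing of mouse mandibular first molars and the tissue around them. It is 1 of the 34285 genes listed for both libraries and was found by its symbol (Ensembl gene ENSMUSG00000030218). In the GENCODE M21 annotation of GRCm38 the gene lies on the minus strand of chromosome 6 between positions 136872435 and 136875823, has 4 exons with 617 bases, 312 of them coding, and overlaps no other annotated gene. The gene was chosen by its levels in the same libraries, which had been seen to differ between Lipo-Clo and Lipo-PBS in opposite directions in perivascular cells and in mesenchyme, so these levels are a description and carry no test.

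All tissue came from C57BL/6J mice at PN15.5 (PN, postnatal day). The Lipo-Clo mice had received clodronate liposomes, which deplete macrophages, into the peritoneum at 40 µg/g, first on PN3.5, then on PN6.5 and PN9.5, and last on PN12.5, and the Lipo-PBS mice had received vehicle liposomes on the same days. Each condition is 1 library, and the sources used here do not say how many mice it holds. Thus no value below has a replicate check, and the intervals are exact 95% intervals (Poisson for counts, Clopper-Pearson for shares of cells) that cover counting error only. Cells were put into classes, and mesenchymal, perivascular and endothelial cells into finer states, from marker genes, with Mgp left out of the genes that shaped the clusters. A state called "X-like" carries at least 3 markers of X.

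Matrix Gla protein is a small secreted protein that binds calcium through glutamate residues carboxylated with the help of vitamin K. It keeps soft tissue free of mineral: mice without it calcify their arteries and cartilage. It also binds bone morphogenetic proteins (BMPs) and restrains their signals. Vascular smooth muscle, pericytes, chondrocytes and fibroblasts are its known sources, and in the tooth it is found in the periodontal ligament, the soft tissue held between mineralizing root and bone.

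After filtering, 8254 Lipo-Clo and 8261 Lipo-PBS cells remained, with a median of 2567 and 2678 unique molecular identifiers (UMIs, each a captured transcript) per cell and 26852424 and 25831678 UMIs in all. Mitochondrial transcripts were 0.370% of UMIs in Lipo-Clo and 1.73% in Lipo-PBS. The libraries shared 23 cell barcodes among the kept cells. Macrophages, the targeted cells, were 127 of the kept Lipo-Clo and 187 of the kept Lipo-PBS cells. Some clusters could not be given a class. The largest, called below the cluster with markers of several lineages, held 51 Lipo-Clo and 679 Lipo-PBS cells. Another, led by Cd74, S100a9 and Lyz2, carried neutrophil, dendritic cell and macrophage markers and held 386 Lipo-Clo and 172 Lipo-PBS cells. Any macrophages in it are outside the macrophage counts above. A cluster led by AW112010 and Odam, with 0 and 33 cells, also carried markers of several lineages. The remaining unnamed cluster was led by Pcp4, Sfrp2 and Mmp13. These clusters stayed out of every class.

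Mgp was among the more abundant transcripts of both libraries. In Lipo-PBS it gave 15950 UMIs, or 617 counts per 1000000 UMIs (CPM; interval 608 to 627), placed 194th of all genes and was seen in 34.8% of cells. In Lipo-Clo it gave 6674 UMIs, or 249 CPM (243 to 255), placed 560th and was seen in 16.7% of cells. The whole-library level was thus lower in Lipo-Clo, by more than counting error, and the classes contributed unequally to it.

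Perivascular cells, the pericytes and smooth muscle cells that wrap vessels, had the highest level in both libraries. Their Mgp level was 2500.2 CPM in Lipo-Clo (interval 2390.3 to 2614; 1944 UMIs in 408 cells) against 1923 CPM in Lipo-PBS (1851 to 1996; 2724 UMIs in 602 cells). A transcript was seen in 60.8% (55.9 to 65.6) and 57.1% (53.1 to 61.1) of these cells. Dental mesenchyme, the class of fibroblasts, periodontal ligament, follicle, pulp and hard-tissue-forming cells, came second, with 285 CPM in Lipo-Clo (276 to 295; 3730 UMIs in 3931 cells) against 771 CPM in Lipo-PBS (755 to 786; 9459 UMIs in 3756 cells). The share of mesenchymal cells with a transcript was 21.2% (19.9 to 22.5) and 39.0% (37.4 to 40.6). The class took in a cluster led by Kcnip4 and Lrrc4c (483 Lipo-Clo and 273 Lipo-PBS cells). Its markers Col9a1, Col9a2 and Hapln1 had named it chondrocyte, and it had 31.6 and 75.5 CPM. Because mesenchyme was the larger class, it still held 55.9% of the Lipo-Clo and 59.3% of the Lipo-PBS Mgp UMIs of kept cells, against 29.1% and 17.1% in perivascular cells. Cells without a class held 3.48% of the Lipo-Clo and 13.9% of the Lipo-PBS Mgp UMIs, with 57.6 CPM (50.4 to 65.5) and 496 CPM (476 to 517), a log2 ratio of −3.11 (−3.31 to −2.91). Most of their Lipo-PBS signal lay in the cluster with markers of several lineages, which was led by Acta2, Tagln and Mgp. It had 235 CPM in Lipo-Clo (164 to 325; 36 UMIs in 51 cells) against 743 CPM in Lipo-PBS (710.1 to 777; 1896 UMIs in 679 cells), and a transcript was seen in 23.5% and 74.4% of its cells. The class ratios given below leave these cells out. Counting that cluster in gave 2127 CPM with Lipo-Clo against 1164 CPM with Lipo-PBS for perivascular cells (log2 ratio 0.87, interval 0.79 to 0.95) and 171 against 640 CPM for endothelium (−1.91, interval −2.17 to −1.65), while mesenchyme stayed at −1.43.

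Endothelium, the lining of vessels, had 155 CPM in Lipo-Clo (126 to 189; 98 UMIs in 402 cells) against 438 CPM in Lipo-PBS (402 to 475; 568 UMIs in 529 cells). Among the reported Lipo-PBS cells it came next after mesenchyme, with no overlap of intervals on either side. That place depended on the cells counted. Without the states led by genes of other lineages, described below, endothelium had 245 CPM in Lipo-PBS, close to 238 CPM in T or NK cells. With the gene minimum raised to 500 and the mitochondrial limit lowered to 10%, Lipo-PBS macrophages had 452 CPM against 406 CPM in endothelium. In Lipo-Clo the endothelial interval overlapped with those of glia above it and B cells below it. Perivascular cells came first and mesenchyme second in both libraries under each of the filters and clusterings that were tried.

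Levels in the remaining classes were low and mostly not separable. In Lipo-Clo they ran from 180 CPM in T or NK cells through 170 in glia, 124 in B cells, 72.2 in epithelium, 64.7 in erythroid cells and 56.3 in neutrophils to 23.5 in macrophages, and the intervals of neighbours overlapped except between B cells and epithelium. In Lipo-PBS they ran from 238 CPM in T or NK cells through 224 in glia, 220.5 in B cells, 182 in neutrophils, 158 in macrophages and 136 in epithelium to 82.0 in erythroid cells, with overlap between all neighbours except epithelium and erythroid cells. Much of this signal sat in a handful of cells: the 5 cells with the most Mgp held 88.6% and 73.1% of the T or NK cell UMIs and 76.8% and 58.4% of the B cell UMIs in Lipo-Clo and Lipo-PBS.

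Erythroid cells, which should lack the gene, give the background from free RNA and from cells caught together. A Mgp transcript was seen in 5.54% of them in Lipo-Clo (3.58 to 8.14; median 3503 UMIs per cell) and in 12.4% in Lipo-PBS (9.0 to 16.5; median 3072 UMIs per cell). With every cell thinned to 1000 UMIs, the share was 2.99% and 5.80% in erythroid cells, 14.1% and 26.7% in mesenchyme, 54.7% and 47.4% in perivascular cells and 6.28% and 23.5% in endothelium. Thinning left out 377 Lipo-Clo and 274 Lipo-PBS mesenchymal, 86 and 70 perivascular, 163 and 146 endothelial, and 32 and 30 erythroid cells. The thinned shares of B cells (3.05% and 8.61%), T or NK cells (7.23% and 6.86%), glia (5.06% and 11.4%), epithelium (3.81% and 7.80%), macrophages (0.91% and 7.65%) and neutrophils (3.45% and 8.84%) were far below those of perivascular cells. In Lipo-PBS all 6 were above the erythroid 5.80%, and the intervals of glia (7.91 to 15.8) and epithelium (5.92 to 10.1) lay above that value, although they overlapped with the erythroid interval (3.42 to 9.13). These low shares are not read as expression. Set against the mesenchymal collagens Col1a1, Col1a2 and Col3a1, there were 8.54 and 8.48 Mgp UMIs per 1000 collagen UMIs in erythroid cells, 4.27 and 12.0 in mesenchyme, 170.1 and 119 in perivascular cells, and 21.5 and 32.8 in endothelium.

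**Figure D1:**
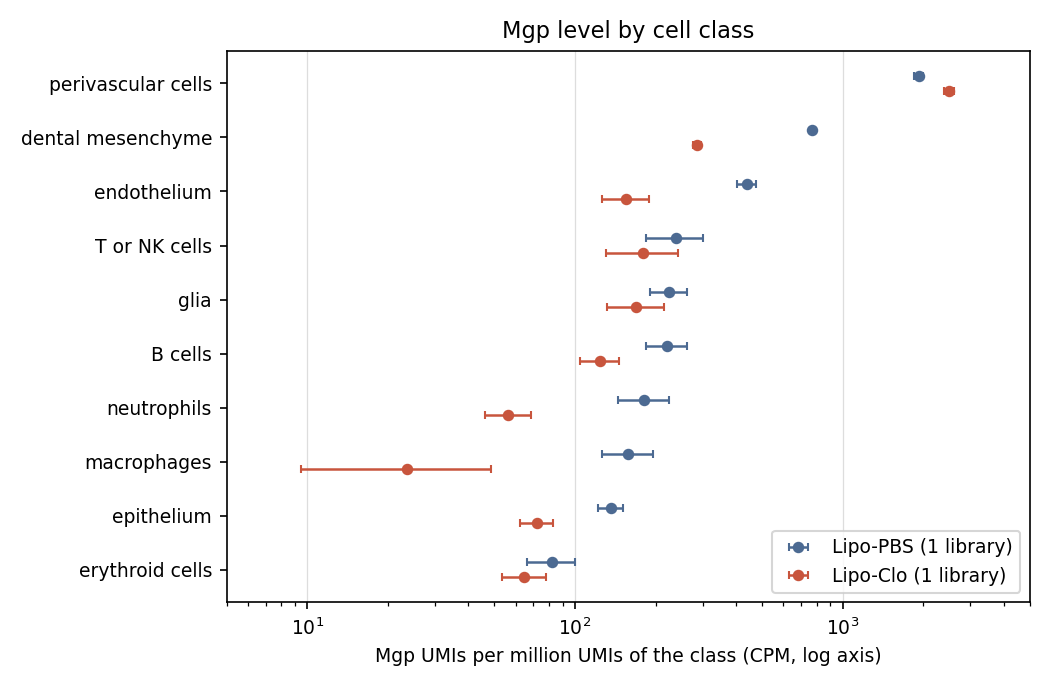
Mgp level by cell class: the horizontal log axis gives Mgp UMIs per 1000000 UMIs of the class (CPM), points are the Lipo-PBS (blue) and Lipo-Clo (red) libraries, 1 each, and bars are exact 95% Poisson intervals that cover counting error only. Perivascular cells sit highest in both libraries and are the only class shown with the red point to the right of the blue point (2500.2 against 1923 CPM).

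The central comparison asks how Mgp differed in the cells that remain after macrophage depletion. In dental mesenchyme it was 2.70-fold lower in Lipo-Clo than in Lipo-PBS (log2 ratio −1.43, interval −1.49 to −1.38). In perivascular cells it was 1.3-fold higher (log2 ratio 0.38, interval 0.29 to 0.46). In endothelium it was 2.82-fold lower (log2 ratio −1.50, interval −1.82 to −1.18).

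Read against the other genes of the same cells, the mesenchymal value lay in the tail and the perivascular value did not. Of 4678 genes detected in 10% or more of mesenchymal cells in Lipo-Clo or in Lipo-PBS, 5.37% were lower in Lipo-Clo by at least 1.5-fold, and Mgp had the 17th lowest ratio, against a median of −0.0016. Of 3512 genes used in perivascular cells, 5.38% were higher by at least 1.5-fold, and Mgp, at 1.3-fold, had the 550th highest ratio, with 15.6% of genes above it. Its perivascular ratio, although clear of 0 in its counting interval, was therefore of a size seen in many genes. Of 3896 genes used in endothelium, 7.75% were lower by at least 1.5-fold, and Mgp had the 52nd lowest ratio.

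Other classes were also lower in Lipo-Clo or not separable from equality. The log2 ratio was −0.83 in B cells (−1.19 to −0.47), −0.91 in epithelium (−1.17 to −0.66), −1.69 in neutrophils (−2.12 to −1.3) and −2.75 in macrophages (−4.11 to −1.65; 7 UMIs against 85). It was −0.40 in T or NK cells (−0.98 to 0.17), −0.40 in glia (−0.83 to 0.02) and −0.34 in erythroid cells (−0.75 to 0.07), with 0 inside each interval. Glial and erythroid levels moved with the filter, as given above, so their ratios hold for the reported cells only. The lower level thus reached classes that are not known to make the protein, and the part of free RNA in it was not tested beyond the subtraction given in the closing section. The median mitochondrial share of a cell's UMIs differed with condition in mesenchyme (0.340% in Lipo-Clo, 1.61% in Lipo-PBS), perivascular cells (0.346% and 2.04%) and endothelium (0.237% and 1.61%), and its part in the ratios was not tested.

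Within mesenchyme, Mgp was highest in the fibroblast-like states and in a periodontal ligament-like state. Fibroblast-like state 1, led by Mfap5, Eln and Clec3b, had 1694 CPM in Lipo-Clo (1615 to 1775) against 2327 CPM in Lipo-PBS (2260.2 to 2395). A transcript was seen in 76.2% and 78.8% of its cells. Periodontal ligament-like state 3, led by Mgp itself, Aspn and Angptl1, had 895 CPM (832 to 963) and 1770.4 CPM (1709 to 1834). Fibroblast-like state 8, led by Col14a1 and Ccl19, had 1274 CPM (1149 to 1408) and 1029 CPM (935 to 1130.4). These 3 states stood above every other mesenchymal state in both libraries.

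A second periodontal ligament-like state, led by the tendon and ligament genes Tnn and Tnmd, had much less Mgp, 138 CPM in Lipo-Clo (125 to 152) against 276 CPM in Lipo-PBS (255 to 299). Cycling cells had 99.8 CPM (84.1 to 118) and 362 CPM (324 to 404). The hard-tissue states were low: osteoblast or cementoblast-like cells, which carry Bglap2 and Ibsp, had 83.2 CPM (68.8 to 99.7) and 63.8 CPM (51.6 to 78.1), and odontoblast-like cells, which carry the dentin gene Dspp, had 34.6 CPM (22.6 to 50.6) and 123 CPM (94.8 to 156). In the osteoblast or cementoblast-like cells of Lipo-Clo, 5 cells held 88.9% of the 117 UMIs. Dental follicle-like cells (Dio2, Moxd1) had 37.7 and 75.6 CPM and dental papilla or pulp-like cells (Lrrc4c, Pcp4) 40.7 and 77.1 CPM in Lipo-Clo and Lipo-PBS, both below the erythroid levels of 64.7 and 82.0 CPM. An unnamed state led by Ctnnd2 and Slc20a2 had 57.7 and 41.7 CPM, and a last state of 27 cells led by B cell genes had 2 UMIs in Lipo-Clo and 0 in Lipo-PBS.

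Pooled by name, fibroblast-like cells held 56.8% of mesenchymal Mgp UMIs in Lipo-Clo and 53.4% in Lipo-PBS, and periodontal ligament-like cells 30.8% and 39.2%. The mesenchymal states outside these names together had 58.6 CPM (53.4 to 64.2) in Lipo-Clo and 118 CPM (109 to 127) in Lipo-PBS.

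Most mesenchymal states were lower in Lipo-Clo. Of the 10 states with at least 50 Mgp UMIs over both libraries, 7 were lower, each with an interval below 0, and 3 were higher, 1 of them with an interval above 0. Among the 7, dental follicle-like and dental papilla or pulp-like cells were below the erythroid level in both libraries. Odontoblast-like cells were below it in Lipo-Clo, where 5 cells held 80.8% of their 26 UMIs. Of the 126 Lipo-PBS UMIs of the dental follicle-like state, 1 cell held 41 and 5 cells held 54.0%. After thinning to 1000 UMIs, a transcript was seen in 3.57% of follicle-like cells with Lipo-Clo against 3.38% with Lipo-PBS. For the dental papilla or pulp-like state the thinned share was 2.46% against 4.53%, and 5 cells held 67.2% and 49.3% of the UMIs. The counting intervals treat UMIs from 1 cell as independent and do not cover this. The log2 ratio was −0.46 (−0.54 to −0.38) in fibroblast-like state 1, −0.98 (−1.10 to −0.87) in the Mgp-rich periodontal ligament-like state and −1.0 (−1.19 to −0.82) in the other. It was −1.86 (−2.15 to −1.57) in cycling cells and −1.83 (−2.54 to −1.15) in odontoblast-like cells. The exception clear of 0 was fibroblast-like state 8, at 0.31 (0.11 to 0.51). The osteoblast or cementoblast-like value of 0.38 (−0.02 to 0.79) and the unnamed state's 0.47 (−0.43 to 1.43) had 0 inside their intervals.

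The class ratio and the ratios inside states measure different things, because the libraries drew their mesenchyme from the states in different amounts. Fibroblast-like state 1 supplied 7.84% of the mesenchymal UMIs in Lipo-Clo and 16.1% in Lipo-PBS, and the Mgp-rich periodontal ligament-like state 6.29% and 14.3%. With identical state weights in each library, the mesenchymal log2 ratio was −0.65, from 392 CPM with Lipo-Clo against 614 CPM with Lipo-PBS. Without the fibroblast-like and periodontal ligament-like states it was −1.01 (−1.18 to −0.84). That value rests on 58.6 CPM in Lipo-Clo, below the erythroid 64.7 CPM there, against 118 CPM in Lipo-PBS. How many cells of a state entered a library can depend on dissection and digestion as well as on the tissue, and these cannot be told apart with 1 library per condition. The 10 mesenchymal class markers summed to 73387.5 and 72791 CPM in the mesenchyme of Lipo-Clo and Lipo-PBS, the perivascular markers to 447 and 477 CPM and the erythroid markers to 22765 and 54871 CPM.

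Within perivascular cells, pericyte-like cells held 74.4% of the Mgp UMIs in Lipo-Clo and 50.3% in Lipo-PBS. Unnamed states held 12.3% and 35.2%. Pericyte-like state 0, led by Higd1b and Ifitm1, had the highest level of any state, 4321 CPM in Lipo-Clo (4071 to 4583; 1108 UMIs in 149 cells) against 3455 CPM in Lipo-PBS (3246 to 3674; 1018 UMIs in 146 cells). Pericyte-like state 1, led by Dlc1 and Gpc6, had 3154 CPM (2826 to 3508) and 2349 CPM (2111 to 2608). Smooth muscle-like state 2, with Myh11, Tagln and Acta2, had 778 CPM (613 to 974) and 517 CPM (437 to 607). Mgp was thus several times higher in pericyte-like than in smooth muscle-like cells of the same library, without overlap of intervals. A small smooth muscle-like state with Actg2 had 0 UMIs in 9 Lipo-Clo cells, with an upper limit of 289 CPM, and 6 UMIs in 15 Lipo-PBS cells.

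Of the 7 perivascular states with at least 50 Mgp UMIs over both libraries, 4 were higher in Lipo-Clo, 3 of them with an interval above 0, and 3 were lower, each with an interval below 0. The log2 ratio was 0.32 (0.20 to 0.45) and 0.42 (0.21 to 0.64) in pericyte-like states 0 and 1 and 0.59 (0.17 to 1.0) in smooth muscle-like state 2. In that smooth muscle-like state 5 cells held 68.4% of the 76 Lipo-Clo UMIs and 41.9% of the 148 Lipo-PBS UMIs. The share of its cells with a transcript was 30.8% (18.7 to 45.1) in Lipo-Clo and 24.6% (17.5 to 32.9) in Lipo-PBS, with overlap of intervals. Cycling perivascular cells had 2502 CPM with Lipo-Clo against 2079.7 CPM with Lipo-PBS (log2 ratio 0.27, interval −0.02 to 0.55). An unnamed state led by the mesenchymal genes Omd, Gpx3 and Col11a1 had 1119.9 and 1469.7 CPM (log2 ratio −0.39, interval −0.65 to −0.14). An unnamed state led by Rgs16, Ccl2 and Irf1, genes induced by stress and inflammatory signals, had 415 CPM (20 UMIs in 34 cells) and 1610.4 CPM (207 UMIs in 73 cells) (log2 ratio −1.96, interval −2.70 to −1.29). An unnamed state led by the fibroblast genes Angptl1, Clec3b and Cd34 had 2016 CPM (35 UMIs in 6 cells) and 3106 CPM (325 UMIs in 29 cells) (log2 ratio −0.62, interval −1.17 to −0.12).

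The perivascular ratio therefore depended on which of these states were counted. Over pericyte-like and smooth muscle-like cells alone, Mgp was 3211 CPM in Lipo-Clo (3052 to 3376) against 1961 CPM in Lipo-PBS (1864 to 2062) (log2 ratio 0.71, interval 0.61 to 0.81). Taken separately, pericyte-like cells had a log2 ratio of 0.37 (0.26 to 0.48) and smooth muscle-like cells, with 68.4% of their 76 Lipo-Clo UMIs in 5 cells, 0.57 (0.16 to 0.98). Both lay below the pooled 0.71. Pericyte-like cells, which had the higher Mgp level, made up 239 of the 300 pooled Lipo-Clo cells but 249 of 394 with Lipo-PBS. The pooled ratio and the separate ratios thus measure different things. Leaving out the perivascular cells with 3 or more UMIs over the mesenchymal genes Pdgfra, Lum, Dcn and Postn gave a class ratio of 0.67 (0.57 to 0.78). Identical state weights in each library brought the class ratio down to 0.13, from 2255 and 2065 CPM. The 10 perivascular markers were all detected in both libraries and summed to 20983 and 20178 CPM in these cells, the 10 mesenchymal class markers to 16960.2 and 19200.4 CPM, and the 9 endothelial markers to 109 and 120.0 CPM with Lipo-Clo at 0 for 2 of them and Lipo-PBS for 1. The erythroid marker list summed to 46430.5 and 93376 CPM and the neutrophil list to 1411 and 141 CPM. The part of these other transcripts in the ratio was not tested beyond the values just given.

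**Figure D2:**
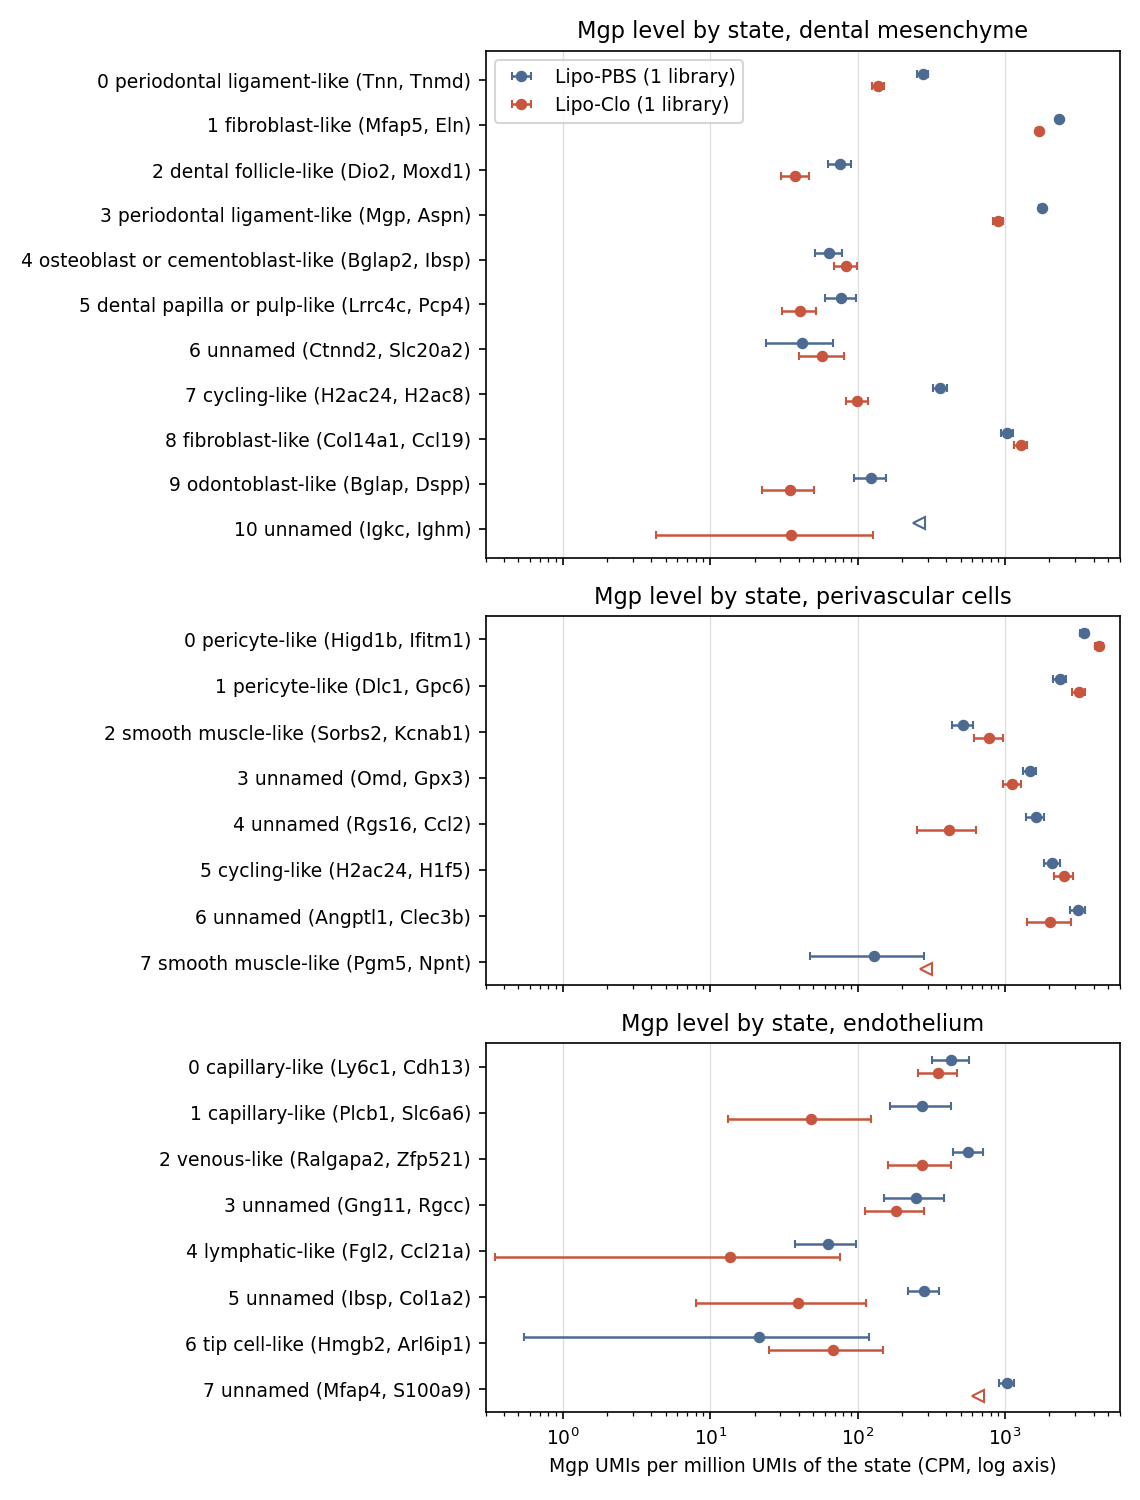
Mgp level in each state of dental mesenchyme, perivascular cells and endothelium: the horizontal log axis gives Mgp UMIs per 1000000 UMIs of the state (CPM), names carry the leading 2 genes of each state, points are the 2 libraries and bars exact 95% Poisson intervals. Open triangles mark the upper limit where no Mgp UMI was counted, and red points lie to the left in most mesenchymal states and to the right in the pericyte-like states.

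In endothelium, Mgp was lower and the counts were small. Capillary-like state 0 had 353 CPM in Lipo-Clo (258 to 470.4; 46 UMIs) against 433 CPM in Lipo-PBS (322 to 569; 51 UMIs) (log2 ratio −0.29, interval −0.90 to 0.31). Capillary-like state 1 had 4 UMIs (48.4 CPM) and 19 UMIs (275 CPM), and venous-like cells, with the venule genes Selp and Vwf, had 18 UMIs (271 CPM) and 73 UMIs (563 CPM) (log2 ratio −1.05, interval −1.88 to −0.29). Lymphatic-like cells, with Prox1 and Lyve1, had 1 UMI (13.7 CPM) and 19 UMIs (62.8 CPM), and tip cell-like cells 6 UMIs (68.6 CPM) and 1 UMI (21.4 CPM). No arterial state was found. Among endothelial cells with at least 2 UMIs over arterial genes, Mgp was 256 CPM in Lipo-Clo (185 to 346; 42 UMIs) against 425 CPM in Lipo-PBS (374 to 482; 243 UMIs). Of the 42 UMIs, 5 cells held 88.1%. The collagens Col1a1, Col1a2 and Col3a1 had 4794 CPM in these Lipo-Clo cells against 16547 CPM in Lipo-PBS, so the values are not read as an arterial level.

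Much of the Lipo-PBS endothelial signal came from a state that also carried genes of other lineages. This state, led by Mfap4, S100a9 and Angptl1 and also carrying Col1a2 and Krt14, held 316 of the 568 Lipo-PBS UMIs in 50 cells (1027 CPM), against 0 UMIs in 3 Lipo-Clo cells. A state led by Ibsp and Col1a2 held 69 UMIs in 66 Lipo-PBS cells (283 CPM) and 3 UMIs in 19 Lipo-Clo cells (39.2 CPM). Without both states, endothelium had 173 CPM with Lipo-Clo against 245 CPM with Lipo-PBS, and the log2 ratio was −0.50 (−0.88 to −0.14). The 10 mesenchymal class markers summed to 7899 CPM in Lipo-Clo endothelium and 15182 CPM in Lipo-PBS endothelium, and the 9 endothelial markers to 6857 and 4312 CPM. Without the 5 cells of each library with the most Mgp, which held 46.9% and 18.3% of the endothelial UMIs, the ratio was −2.18 (−2.62 to −1.77). The endothelial value is thus of uncertain size at this depth. Across all ways of processing that were tried, the plot of ratios by setting shows the widest range for this class.

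**Figure D3:**
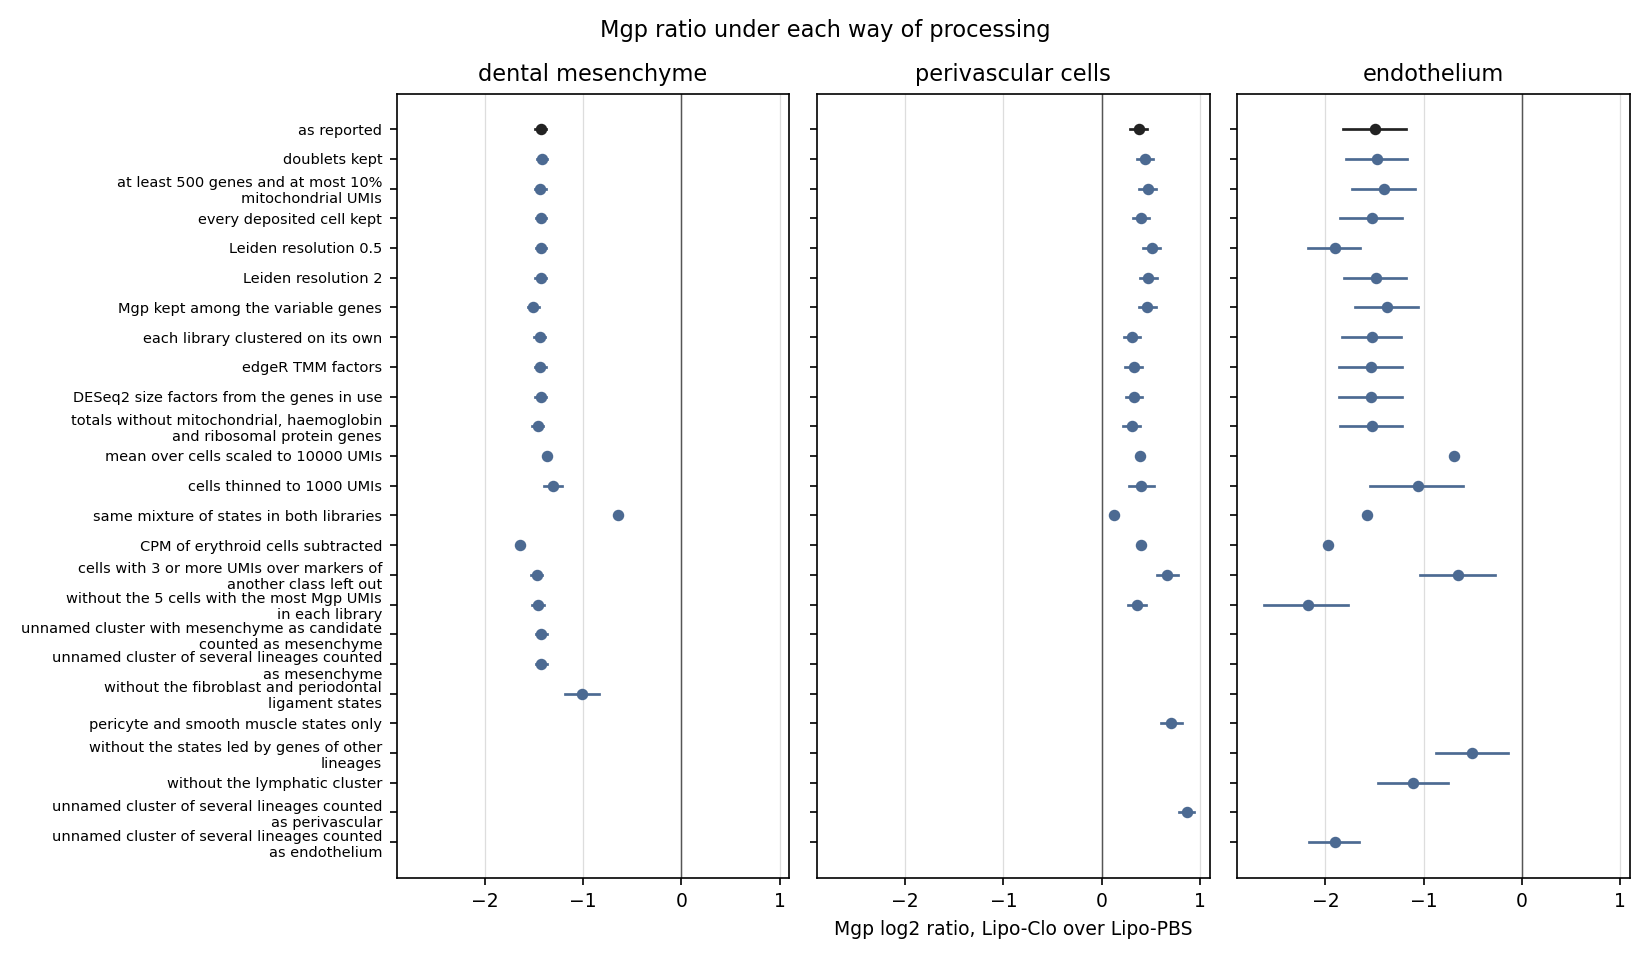
Mgp log2 ratio of Lipo-Clo over Lipo-PBS (horizontal axis) in 3 classes under each way of processing (vertical axis): black points are the reported values, blue points the alternatives, and bars exact 95% counting intervals where one could be computed. No alternative crosses 0, and values run from −1.64 to −0.65 in mesenchyme, 0.13 to 0.87 in perivascular cells and −2.18 to −0.50 in endothelium.

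Epithelium was low as a class, with 1 cluster apart. A cluster led by Cxcl14, Dsc3 and Nppc had 388 CPM in Lipo-Clo (299 to 495; 64 UMIs in 60 cells) against 46.2 CPM in Lipo-PBS (23.1 to 82.6; 11 UMIs in 74 cells) (log2 ratio 3.07, interval 2.14 to 4.14). In Lipo-Clo 5 cells held 76.6% of these UMIs. The collagens Col1a1, Col1a2 and Col3a1 had 29247 CPM in the Lipo-Clo cells of this cluster against 10807 CPM in its Lipo-PBS cells. The part of mesenchymal RNA in its Mgp ratio was not tested. The ameloblast-like epithelial cluster, with the enamel genes Ambn and Amelx, had 42.1 and 140.3 CPM, and the keratin-rich cluster, with Krt14 and Krt5, had 69.7 and 148 CPM.

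Few genes had counting intervals clear of 0 in opposite directions in mesenchyme and perivascular cells. Of 3233 genes used in both classes, 43 (1.33%) had an interval below 0 in mesenchyme and above 0 in perivascular cells, and 13 (0.402%) the reverse. Intervals narrow as UMIs increase, and Mgp had 1944 and 2724 UMIs in perivascular cells. Genes with few UMIs there could pass only with larger ratios, so these shares do not measure how rare the pattern is. Mgp was chosen for this pattern, and among the 43 it had the widest gap between the log2 ratios, 1.81. Next came Thy1, the cell surface protein CD90, with −1.01 in mesenchyme and 0.56 in perivascular cells, and Cygb, the haem protein cytoglobin, with −0.57 and 0.94. Col4a1, a chain of basement membrane collagen, had −0.94 and 0.18, and its level was 2280.3 and 2017 CPM in perivascular cells against 104 and 200 CPM in mesenchyme. Tnfrsf21, a death receptor, had −0.55 and 0.55, and Serpine2, a secreted protease inhibitor, −0.82 and 0.26. All 6 genes had higher levels in perivascular cells than in mesenchyme in both libraries.

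**Figure D4:**
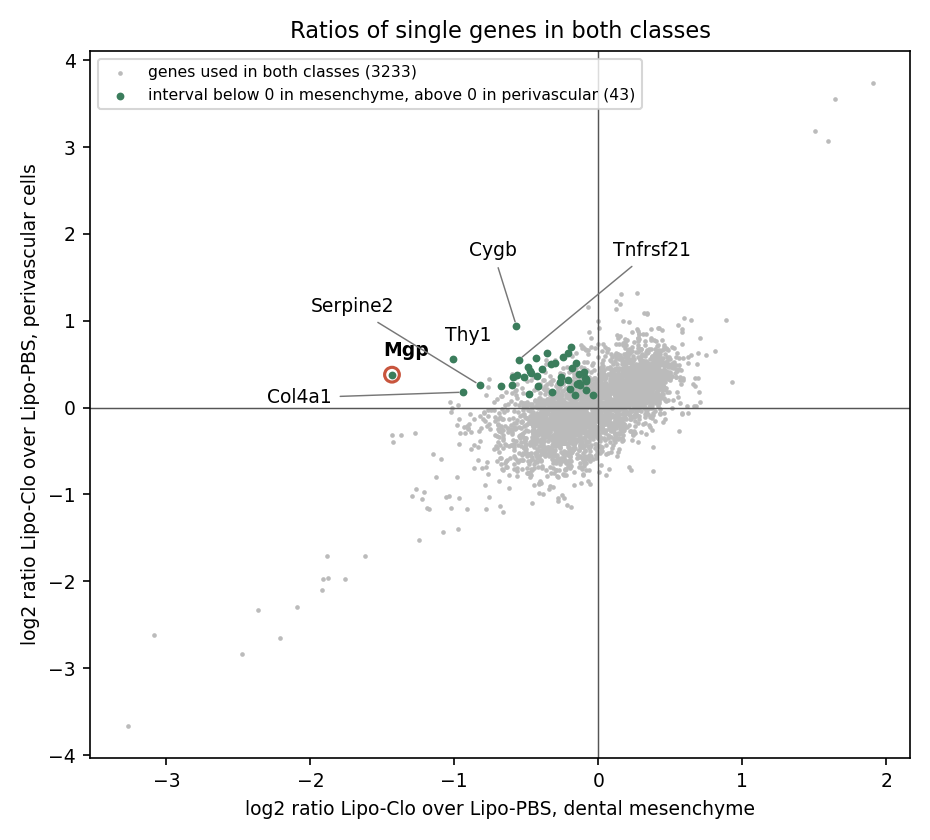
Log2 ratio of Lipo-Clo over Lipo-PBS in dental mesenchyme (horizontal axis) and in perivascular cells (vertical axis) for the 3233 genes used in both classes (grey), with the 43 genes whose intervals lie below 0 in mesenchyme and above 0 in perivascular cells in green. Mgp (circled, −1.43 and 0.38) lies farthest to the left among the green points.

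The genes most like Mgp in pattern were found by Pearson r of log2(CPM + 10) over 51 profiles, each a cluster of at least 50 cells in 1 library, among 12438 genes. The profiles share libraries and differ in depth, so r is a description only. Eln, which encodes elastin, was closest with r = 0.85 (0.87 over the Lipo-Clo profiles and 0.83 over the Lipo-PBS profiles). It was followed by Meox2, a homeobox factor (0.80), Ccn2, the matrix-associated connective tissue growth factor (0.79), Nnmt, which methylates nicotinamide (0.78), Plac9 (0.78), Dgkb, a diacylglycerol kinase (0.77), Ecm2 (0.77) and Ccdc80 (0.76), the last 2 being genes of the extracellular matrix. With log2(CPM + 1), 5 of these 8 stayed among the closest 8.

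In mesenchyme all 8 were lower in Lipo-Clo, with log2 ratios from −0.22 for Eln to −2.18 for Dgkb (median over all genes used −0.0016). Ccn2 at −1.44 (−1.56 to −1.31) and Ecm2 at −1.42 (−1.67 to −1.18) were close to Mgp. The 8 were picked over clusters of both libraries, mesenchymal ones included. A direction shared with Mgp is thus partly built into the choice and is not a separate result. In perivascular cells 1 of the 8, Plac9, was higher with an interval above 0, at 0.16 (0.09 to 0.23), and with −0.48 (−0.51 to −0.45) in mesenchyme it had both directions of Mgp. Eln had 738 CPM with Lipo-Clo against 1149.9 CPM with Lipo-PBS there (log2 ratio −0.64, interval −0.78 to −0.50), and Dgkb −1.08 (−1.61 to −0.58). The other 5 ran from −0.45 to −0.23 with 0 inside their intervals.

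The machinery that activates the protein was measured only in part. For this and the following gene lists, ratios are sums over a class whose states had different shares in each library. No list gene was recounted with identical state weights, so the part of the mixture in these ratios was not tested. Of 5 genes of the vitamin K cycle and gamma-carboxylation, 2 passed the 10% limit in mesenchyme. None of the 2 was past 1.5-fold (background 5.37% lower and 1.2% higher). Vkorc1, the reductase that recycles vitamin K, had 565 CPM with Lipo-Clo against 493 CPM with Lipo-PBS in mesenchyme (log2 ratio 0.20, interval 0.15 to 0.24), and its paralogue Vkorc1l1 39.0 and 33.1 CPM (log2 ratio 0.24, interval 0.04 to 0.43). Vkorc1 alone passed in the vascular classes, with 0.42 (0.16 to 0.67) in perivascular cells and −0.19 (−0.52 to 0.13) in endothelium. Of 5 genes of propeptide processing and secretory phosphorylation, 3 passed in mesenchyme, none past 1.5-fold (same background). Of these 3, 1 was below 0 and 2 above, with a median of 0.0086 against −0.0016 over all genes used. Furin, a proprotein convertase, was at 0.33 (0.23 to 0.42) in mesenchyme. Of the 2 that passed in perivascular cells, 1 was higher by at least 1.5-fold (background 5.38%), Furin at 0.85 (0.40 to 1.3), with 109 against 60.7 CPM. In endothelium (6.98% of genes higher and 7.75% lower by at least 1.5-fold) Furin was at 0.76 (0.27 to 1.3) and Pcsk6, another convertase, at −1.56 (−2.22 to −0.96). Pcsk6 was a leading gene of the lymphatic-like state, which had 23 Lipo-Clo and 77 Lipo-PBS cells. The part of this difference in its ratio was not tested.

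Few of the other vitamin K-dependent proteins could be followed. Of 15 genes, 4 passed in mesenchyme and 1 was lower by at least 1.5-fold (background 5.37%). It was Gas6, the ligand of the TAM receptors, at −0.61 (−0.80 to −0.42). Bglap, osteocalcin, had 1938 and 1672 CPM (log2 ratio 0.21, interval 0.19 to 0.24), and Bglap2 747 and 758 CPM, −0.02 (−0.06 to 0.02). The Bglap genes are near-identical copies, so their counts are uncertain. Pros1, the anticoagulant protein S, was at −0.19 (−0.28 to −0.09). In perivascular cells Bglap was at 0.99 (0.66 to 1.32) and Pros1 at −0.31 (−0.75 to 0.12). In endothelium, which does not make osteocalcin, Bglap had 39 UMIs in Lipo-Clo and 535 in Lipo-PBS (log2 ratio −2.74, interval −3.25 to −2.27), and Gas6 and Pros1 had 0 inside their intervals. Median log2 ratios of the list were −0.11 in mesenchyme, 0.34 in perivascular cells and −0.31 in endothelium, against −0.0016, 0.05 and 0.04 over all genes used. The perivascular median rests on Bglap and Pros1 alone, and the endothelial median on Bglap, Gas6 and Pros1, so neither describes the list. The part of RNA from hard-tissue cells in the vascular Bglap values was not tested.

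Of 12 genes of mineral balance, 11 were listed and 5 passed the limit in mesenchyme, with a median of 0.15 against −0.0016 over all genes used. None was past 1.5-fold (background 5.37% lower and 1.2% higher), so this count does not set the list apart. Spp1, osteopontin, had 795 CPM with Lipo-Clo against 719 CPM with Lipo-PBS (log2 ratio 0.15, interval 0.10 to 0.19). Alpl, the phosphatase that removes the mineral inhibitor pyrophosphate, was at 0.29 (0.22 to 0.36), Slc20a2, a phosphate transporter, at 0.41 (0.31 to 0.51), Ank, which exports pyrophosphate precursors, at −0.10 (−0.20 to 0.01) and Fbln5, an elastic fibre protein, at −0.12 (−0.26 to 0.01). Alpl alone passed in perivascular cells, at 0.56 (0.15 to 0.97). In endothelium Ank was at −0.22 (−0.74 to 0.28) and Fbln5 at −0.54 (−1.02 to −0.07).

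Of 12 BMP ligands and receptors, to which the protein is linked as an inhibitor, 6 passed in mesenchyme. Their median was −0.19 against −0.0016 over all genes used. None was past 1.5-fold (background 5.37% lower and 1.2% higher), so this count does not set the list apart either. Bmp2 was at 0.16 (−0.01 to 0.32), Bmp4 at −0.35 (−0.51 to −0.18) and Bmp7 at 0.30 (0.13 to 0.47). The receptors Bmpr1a, Bmpr2 and Acvr1 were at −0.18, −0.25 and −0.21, with intervals below 0. In the vascular classes Eng, the co-receptor endoglin, was higher by at least 1.5-fold (background 5.38% in perivascular cells and 6.98% in endothelium). It was at 0.78 (0.17 to 1.38) in perivascular cells and 0.90 (0.69 to 1.11) in endothelium, where it had 572 and 307 CPM. The other receptors used in perivascular cells ran from −0.12 to 0.00, and in endothelium Bmpr2 was at 0.36 (0.12 to 0.59) and Acvr1 at −0.04 (−0.58 to 0.49). The 9 endothelial class markers were also higher in Lipo-Clo endothelium, summing to 6857 against 4312 CPM. Their part in the Eng ratio was not tested.

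Target genes of BMP signals had higher levels when summed over the Lipo-Clo mesenchyme, with the shares of its states not held equal. All 5 of the 12 antagonists and targets that passed were above 0, with a median of 0.33 against −0.0016 over all genes used. Of these, 1 was past 1.5-fold (background 1.2% of genes). Id1 had 98.1 CPM with Lipo-Clo against 62.2 CPM with Lipo-PBS (log2 ratio 0.66, interval 0.53 to 0.79). Id3 had 1908 and 1432 CPM, 0.41 (0.39 to 0.44), and Id2, Smad6 and Smad7 were at 0.33, 0.31 and 0.12, the last with 0 inside its interval. Id1 and Id3 were also higher in endothelium, at 0.72 (0.41 to 1.02) and 0.38 (0.27 to 0.49), where Id2 was at 0.20 (−0.27 to 0.67). The summed endothelial markers were higher there too, and their part in these ratios was not tested. In perivascular cells Id3 was at 0.24 (0.15 to 0.33), and Id1 at 0.27, Id2 at −0.31 and Smad7 at −0.19 had 0 inside their intervals. The Id genes answer to other signals too, and no link to Mgp was tested.

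Matrix partners of the protein were mixed. Of 7 genes, 5 passed in mesenchyme with a median of −0.22 against −0.0016 over all genes used. Fbn1, fibrillin-1 of the microfibrils, was lower by at least 1.5-fold (background 5.37%), at −0.70 (−0.76 to −0.63), with 268 and 435 CPM. Fn1, fibronectin, was at −0.58 (−0.63 to −0.54), Eln at −0.22 (−0.26 to −0.19), Fbn2 at 0.08 (−0.01 to 0.16) and Emilin1 at 0.29 (0.19 to 0.39). In perivascular cells Eln was lower by at least 1.5-fold (background 5.64%) and Vtn, vitronectin, was higher by as much (background 5.38%), at 0.68 (0.22 to 1.13). Vtn also served as a pericyte marker, and pericyte-like cells were 58.6% of Lipo-Clo and 41.4% of Lipo-PBS perivascular cells. The part of this mixture in its ratio was not tested. Fn1 was at −0.42 (−0.67 to −0.18) there, and Fbn1 and Fbn2 had 0 inside their intervals. In endothelium Eln, Fn1 and Fbn1, with −1.47, −0.83 and −0.88, were lower by at least 1.5-fold (background 7.75%), and Emilin1 was at 0.14 (−0.46 to 0.72). Fbn1 also served as a mesenchymal class marker. The 10 mesenchymal class markers summed to 7899 CPM in Lipo-Clo endothelium against 15182 CPM in Lipo-PBS endothelium. The part of mesenchymal RNA in these endothelial ratios was not tested.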

How the data were processed

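Single cells were counted by the authors with Cell Ranger (8.0.0 per the file headers; the submitters' processing notes give Cell Ranger 3.1.0 and Seurat 3.1.1), and what they deposited is a table of raw UMI counts for every gene in every called cell, with no later step stated. Deposited depth was 31053404 UMIs in 9362 Lipo-Clo and 30537834 UMIs in 9653 Lipo-PBS cells, of which 7567 and 17684 UMIs were Mgp. The deposited libraries shared 30 barcodes. The files hold no coordinates; gene positions come from GENCODE M21, whose build differs from that in the submitters' notes.

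Cells needed 200 genes and at most 20% mitochondrial UMIs. Doublets were scored with Scrublet (scanpy 1.11.5), whose automatic threshold called 0 and 1 cells, so 632 and 633 cells with the top scores (0.8% for each 1000 cells) were removed instead. After scaling to 10000 UMIs and a log transform, Leiden clustering (leidenalg 0.10.2, resolution 1) used 2000 variable genes other than Mgp, 30 principal components and 20 neighbours, over both libraries without batch correction. A cluster was named when 3 or more markers reached 2-fold over the median cluster in 10% of its cells; the naming rules were settled after the data were seen. Mesenchyme was clustered again at resolution 0.6, and perivascular cells and endothelium at 0.5.

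UMIs were summed per library and class and given as CPM, with exact 95% intervals for ratios. The code was checked on simulated counts. With 1 library per condition no test was made. The gene, the gene lists and the alternatives were chosen with earlier results of these data known. Named genes were Mgp, list members passing the 10% limit, the 8 genes closest in pattern, the 6 with the widest opposite ratios, and markers. edgeR 4.0.16 and DESeq2 1.42.0 gave scaling factors as alternatives.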

Additional observations from a re-analysis of the deposited data

Results flagged for a closer look

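Mgp differed between the libraries in opposite directions in cell groups of the same tissue. The log2 ratio of Lipo-Clo over Lipo-PBS in perivascular cells exceeded that in dental mesenchyme by 1.81. The gene was picked for this pattern and the difference was not tested, as each condition has 1 library.

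The epithelial cluster led by Cxcl14 and Dsc3 had a log2 ratio of 3.07, while the remaining epithelial clusters were at −1.74 (−2.18 to −1.30) and −1.08 (−1.53 to −0.66). This difference was not tested either, and 5 cells held 76.6% of the Lipo-Clo UMIs of that cluster. Its level of Col1a1, Col1a2 and Col3a1 was also higher in Lipo-Clo, at 29247 against 10807 CPM.

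Fibroblast-like state 8, led by Col14a1 and Ccl19, had a log2 ratio of 0.31 while fibroblast-like state 1 had −0.46, again without a test of the difference.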

How the results depend on the processing

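No paired analysis was possible because there is just 1 library for each condition. None of the 19 mesenchymal, 18 perivascular and 19 endothelial alternatives turned a direction, and 13, 10 and 10 of them stayed within the counting interval of the reported ratio. The mesenchymal log2 ratio of −1.43 moved to −1.51 with Mgp kept among the variable genes, −1.37 as a mean over scaled cells, −1.31 with cells thinned to 1000 UMIs, −1.64 after subtraction of the erythroid level, −0.65 with the same mixture of states and −1.01 without the fibroblast and periodontal ligament states. The perivascular ratio of 0.38 moved to 0.47 when the gene minimum was raised to 500 and the mitochondrial limit lowered to 10% together and also with Mgp kept, 0.51 and 0.48 at Leiden resolutions 0.5 and 2, 0.13 with the same mixture, 0.67 without cells carrying mesenchymal markers 0.71 over pericyte and smooth muscle states and 0.87 with the cluster of several lineages counted in. The endothelial ratio of −1.50 moved to −1.91 at resolution 0.5 and also with the cluster of several lineages counted in, −0.69 as a mean over scaled cells, −1.06 thinned, −1.97 after subtraction of the erythroid level, −0.65 without cells carrying mesenchymal markers, −2.18 without the 5 cells richest in Mgp, −0.50 without states led by genes of other lineages and −1.11 without the lymphatic cluster. The share of genes past the fold limit in the direction of Mgp moved with the limit: in mesenchyme from 5.37% to 18.4% with a looser limit, 1.07% at 2-fold and 9.56% over all genes with 20 UMIs, in perivascular cells from 5.38% to 21.3%, 0.569% and 10.1%, and in endothelium from 7.75% to 16.8%, 3.54% and 13.9%. The alternatives that recount states, clusters or the richest cells were chosen after the data had been seen. Apart from changes that follow from the cells counted, the cause was not tested. Depth limits the endothelial states, with 1 to 73 UMIs in most of them, and the immune classes. The erythroid level in Lipo-PBS moved from 82.0 CPM to 56.1 CPM with every deposited cell kept. It was 191 CPM with the raised gene minimum and lowered mitochondrial limit.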
